A study of Mus musculus with 20 samples.

Results

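The genes described here are the 10 nuclear genes that copy mitochondrial DNA and make and stabilise its transcripts: Tfam, Tfb1m, Tfb2m, Polrmt, Polg, Polg2, Twnk, Ssbp1, Lrpprc and Slirp. They were taken by symbol from the 25851 genes of a heart RNA-seq table, and all 10 were found. Each was measured in 20 libraries and set against the 13 mRNAs that the mitochondrial genome itself encodes.

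Mitochondrial DNA is a small circle present in many copies per cell. Its genes are read by a single-subunit RNA polymerase, POLRMT, with the promoter factors TFAM and TFB2M, and the same polymerase also makes the primers from which DNA replication starts. Replication needs the helicase TWNK, the polymerase POLG with its accessory subunit POLG2, and the single-strand binding protein SSBP1, while LRPPRC and SLIRP form a complex that keeps the mRNAs stable and polyadenylated. TFAM also coats and compacts the DNA. In heart muscle, which is packed with mitochondria, these nuclear genes are textbook targets of a programme led by the coactivator PGC-1α (gene Ppargc1a) together with NRF-1, GABP and ERR factors.

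The hearts came from 20 male mice of 14 to 16 weeks. There were 4 groups of 5: sedentary wild-type, sedentary with a labelled cardiomyocyte knockout of PGC-1α, and both genotypes after 6 weeks of voluntary wheel running. The labels do not give the Cre driver, the deleted exon or the strain, and all libraries carry the same batch label. A small piece of heart was used, and the chamber was not given. Values are FPKM, fragments scaled by exon length and library size, as mean ± SD with n = 5. Differences are log2 fold changes of FPKM + 0.5 from limma, given ± SE, and a gene is said to have fallen or risen only where the p adjusted over all 13723 tested genes is below 0.05.

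Depth was 14.2 to 30.4 M reads per library. The deposited level of Ppargc1a spans all its exons and was higher in the labelled knockouts in sedentary hearts (18.2 to 27.9 FPKM, against 9.39 to 15.4 in wild-type). In trained hearts it was also called higher, though the ranges overlapped (18.7 to 26.9, against 10.4 to 21.9). The level of Ppargc1a thus does not check the genotype, and the groups are called labelled knockout. Cardiomyocyte markers summed to 11075 FPKM or more in every library. The clock gene Arntl was above 2 FPKM in sedentary wild-type libraries 1 to 4 (2.46 to 4.36) and sedentary labelled knockout library 1 (2.504), and was 0.0658 to 1.16 FPKM in the other 15. The atrial gene Myl7 was above 1000 FPKM in trained wild-type libraries 4 and 5 (1975 and 3484) and trained labelled knockout libraries 2 and 5 (2055 and 1355). The calls for the members, the marker lists and the mitochondrial mRNAs are also given without these libraries, where enough libraries are left.

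The promoters show which of the known regulatory motifs each gene carries. In RefSeq windows running from 250 bases before to 50 after the start (GRCm38.p6), the ETS/GABP motif CCGGAAG occurred on either strand in 7 of the 10 genes, against 8.86% of 32851 promoters. These were Tfam, Polrmt, Polg, Polg2, Ssbp1, Slirp and, at its downstream promoter, Twnk. The NRF-1 motif GCGCANGCG occurred in 2 genes (Polrmt and Tfb2m) against 6.25%, the ERR element AAGGTCA in 1 (Twnk) against 4.72%, the YY1 motif AAGATGG in 1 (Slirp) against 6.34%, and the Sp1 motif GGGCGG in 7 against 35.7%. A match is a string of letters and not a bound site. Shown from 150 bases before to 15 after the start, with these motifs in capitals (in reverse complement, such as CCGCCC for Sp1, where they lie on the other strand), are the promoters of the 3 genes that fell in both genotype comparisons and of Polrmt, whose sedentary difference did not pass the test.
Tfam: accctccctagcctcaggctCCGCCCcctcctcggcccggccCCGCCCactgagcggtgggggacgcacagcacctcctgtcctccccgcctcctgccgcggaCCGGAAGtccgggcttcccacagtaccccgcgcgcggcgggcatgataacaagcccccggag
Twnk: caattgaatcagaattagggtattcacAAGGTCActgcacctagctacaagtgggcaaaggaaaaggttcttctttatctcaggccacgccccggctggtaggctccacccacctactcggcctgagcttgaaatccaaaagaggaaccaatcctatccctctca
Lrpprc: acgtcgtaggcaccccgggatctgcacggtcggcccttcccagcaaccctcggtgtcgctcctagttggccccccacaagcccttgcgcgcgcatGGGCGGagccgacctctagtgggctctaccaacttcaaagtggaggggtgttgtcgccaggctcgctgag
Polrmt: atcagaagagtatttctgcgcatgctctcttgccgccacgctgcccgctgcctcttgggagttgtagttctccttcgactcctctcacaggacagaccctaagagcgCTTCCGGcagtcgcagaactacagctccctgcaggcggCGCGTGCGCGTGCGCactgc
The Tfam run (chr10:71238030-71238194, minus strand) has an ETS motif 47 bases before the start and a pair of Sp1 motifs further upstream. The Twnk run (chr19:45005513-45005677, plus strand) has the ERR element 123 bases before the start. The Lrpprc run (chr17:84790772-84790936, minus strand) has an Sp1 motif only. The Polrmt run (chr10:79746567-79746731, minus strand) has an ETS motif on the opposite strand, 43 bases before the start, and overlapping NRF-1 motifs across it.

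Transcript levels of the members differed widely in sedentary wild-type hearts. Per kilobase of exon, Lrpprc was the most abundant at 27.7 ± 5.84 FPKM and Tfb2m followed at 17.6 ± 1.89. Tfam (10.7 ± 0.724), Twnk (10.6 ± 1.01) and Polrmt (10.1 ± 0.832) did not differ beyond their SD, and Polg stood at 7.79 ± 1.21. Ssbp1 (3.06 ± 0.276), Tfb1m (2.43 ± 0.199), Polg2 (1.15 ± 0.105) and Slirp (0.389 ± 0.099) were lower. The length used is the union of all annotated exons, 8360 bases for Ssbp1, so a gene with rarely used exons reads low on this scale.

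Tfam, Twnk and Lrpprc fell with the labelled knockout in sedentary hearts, and Tfam, Twnk, Lrpprc, Polrmt and Tfb1m in trained hearts. With training, Tfam fell in wild-type hearts, and Tfb1m, Ssbp1, Polrmt and Tfam fell in labelled knockout hearts. No member rose in any comparison, and Polg and Polg2 passed the test in none. Of the 9 members tested, 3 were lower in the sedentary genotype comparison, where 6.32% of all genes tested were called lower. In the trained genotype comparison 5 of 9 were lower (15.4% of all genes), with training in wild-type hearts 1 of 9 (2.53%), and with training in labelled knockout hearts 4 of 9 (16.3%). These comparisons share libraries pairwise and are not independent of each other. The tissue was measured in bulk, so fewer cells of a type and less RNA per cell cannot be told apart.

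The median log2 difference of the 9 members was -0.04 for genotype in sedentary hearts (0.04 when every library is scaled to the same summed FPKM, that is to TPM) and -0.25 in trained hearts (0.02 in TPM). It was -0.22 for training in wild-type hearts and -0.29 in labelled knockout hearts, and kept its sign there in TPM (-0.15 and -0.04). The medians of all genes tested lay between -0.02 and -0.01 in these 4 comparisons as deposited. As deposited, all 9 members had values below 0 in the trained genotype comparison and for training in labelled knockout hearts, and 6 of 9 in the other pair. Of all genes tested, 50.8% and 53.3% were below 0 in the former pair, and 51.4% (sedentary genotype) and 52.2% (wild-type training) in the latter. In TPM 4 and 7 of 9 members were below 0 in the former pair (22.2% and 22.9% of all genes). In the latter these were 4 and 6 of 9 (38.4% and 40.8%).

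**Figure D1:**
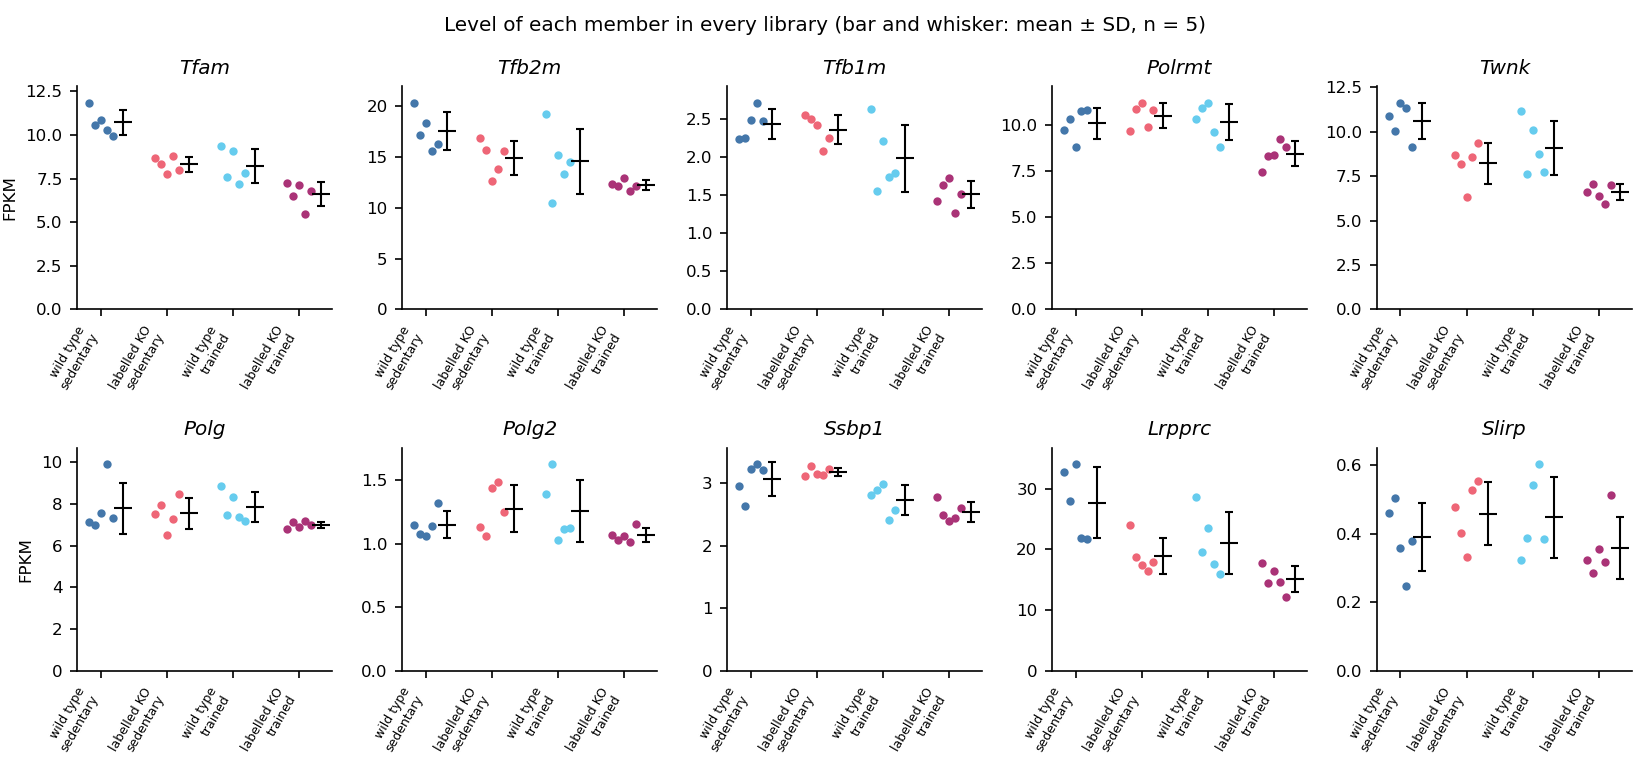
FPKM (vertical axis of each panel, from 0) of the 10 members in every library, with 5 points for each of 4 groups and a bar and whisker for the group mean ± SD (n = 5). Tfam steps down from 10.7 in sedentary wild-type to 6.63 in trained labelled knockout hearts, while Polg stays between 6.999 and 7.85 in its group means.

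Tfam, the packaging and promoter factor (chr10:71225464-71238280, minus strand of GRCm38), was the member that passed the test in all 4 comparisons. Sedentary wild-type libraries 1 to 5 had 11.9, 10.6, 10.9, 10.3 and 9.96 FPKM, and sedentary labelled knockout libraries 8.69, 8.32, 7.76, 8.81 and 7.98. Every sedentary wild-type library was above every sedentary labelled knockout library. Trained wild-type libraries had 9.37, 7.58, 9.08, 7.18 and 7.83 FPKM, and trained labelled knockout libraries 7.24, 6.50, 7.13, 5.47 and 6.80. The trained groups overlapped by a single value, since labelled knockout library 1 lay above wild-type library 4. These levels rest on 475 to 1034 reads per library.

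Tfam fell by 21.4% with genotype in sedentary hearts (log2 -0.35 ± 0.08, adjusted p = 0.00826) and fell by 18.1% in trained hearts (-0.29 ± 0.08, adjusted p = 0.0117). With training it fell by 22.6% in wild-type hearts (-0.37 ± 0.08, adjusted p = 0.0191) and fell by 19.4% in labelled knockout hearts (-0.31 ± 0.08, adjusted p = 0.00728), in both cases with no overlap between sedentary and trained libraries. The training changes of both genotypes differed by 0.06, with a 95% interval of -0.18 to 0.30 (adjusted p = 0.771). Left-out libraries changed only the wild-type training call, which did not pass without sedentary wild-type library 1 or trained wild-type library 2 or 4 (-0.34 to -0.33, adjusted p = 0.05 to 0.0686).

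Polrmt, the RNA polymerase (chr10:79736123-79746581, minus strand), was low in a single group. Its libraries had 9.75, 10.3, 8.81, 10.8 and 10.8 FPKM in sedentary wild-type and 9.69, 10.9, 11.2, 9.87 and 10.8 FPKM in sedentary labelled knockout hearts. Trained wild-type libraries had 10.3, 10.9, 11.2, 9.63 and 8.79 FPKM, and trained labelled knockout libraries 7.45, 8.34, 8.39, 9.22 and 8.82. The first 3 groups lay on top of each other, with means of 10.1 ± 0.832, 10.5 ± 0.669 and 10.2 ± 0.974, and the last stood at 8.44 ± 0.660. Every trained labelled knockout library was below every sedentary labelled knockout library.

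With training Polrmt fell in labelled knockout hearts (log2 -0.30 ± 0.08, adjusted p = 0.00595), and in wild-type hearts its value was 0.01 (95% interval -0.15 to 0.17). The genotype difference was -0.25 ± 0.08 in trained hearts (adjusted p = 0.0171), a fall as deposited that had the opposite sign in TPM (0.02), and 0.06 in sedentary hearts (95% interval -0.10 to 0.21). The training changes of both genotypes differed by -0.31 ± 0.11, which did not pass the test (adjusted p = 0.0825, unadjusted p = 0.00967). No member passed the test of that difference, against 5% of all genes called lower, by limma or by limma voom on recovered reads, and Polrmt was the only one with an unadjusted p below 0.05. Without the 4 high-Myl7 libraries Polrmt passed it. The trained genotype call was lost without trained wild-type library 3 or trained labelled knockout library 1 (-0.22 to -0.21, adjusted p = 0.0532 to 0.0568).

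Tfb2m opens the promoter together with POLRMT (chr1:179528055-179546267, minus strand). Sedentary wild-type libraries had 20.4, 17.2, 18.4, 15.6 and 16.3 FPKM and sedentary labelled knockout libraries 16.9, 15.7, 12.7, 13.8 and 15.6. Trained wild-type hearts spread widely, with 19.3, 10.5, 15.2, 13.4 and 14.5 FPKM, while trained labelled knockout hearts were close together at 12.4, 12.2, 12.9, 11.6 and 12.2. The pairwise values were alike, -0.23, -0.22, -0.28 and -0.27 for genotype in sedentary and trained hearts and for training in wild-type and labelled knockout hearts, and none passed the test (adjusted p = 0.0917 to 0.196). The genotype difference averaged over both training states was a fall of -0.22 ± 0.08 (adjusted p = 0.0470). In that average 4 of 9 members were lower, against 15.5% of all genes: Tfam (-0.32), Twnk (-0.39), Lrpprc (-0.48) and Tfb2m. With log2 Arntl as a covariate the averaged call of Tfb2m was lost and those of Tfam, Twnk and Lrpprc were kept. Without the high-Arntl libraries 1 sedentary wild-type library is left, so the averaged calls cannot be judged. For Tfb2m the averaged call was lost with any 1 of 15 libraries left out (-0.23 to -0.17, adjusted p up to 0.0898), the exceptions being sedentary wild-type libraries 4 and 5, sedentary labelled knockout library 1 and trained wild-type libraries 2 and 4.

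Tfb1m, its relative that methylates the small ribosomal RNA (chr17:3519256-3557781, minus strand), had the largest training difference of the members. In labelled knockout hearts the libraries went from 2.55, 2.49, 2.42, 2.08 and 2.25 FPKM sedentary to 1.42, 1.63, 1.72, 1.27 and 1.51 FPKM trained, without overlap. It fell by 29.8% (log2 -0.51 ± 0.10, adjusted p = 0.000887). In wild-type hearts it was 2.23, 2.25, 2.49, 2.71 and 2.47 FPKM sedentary and 2.63, 1.55, 2.21, 1.73 and 1.78 FPKM trained, where library 1 lay within the sedentary range and the others below it. That wild-type difference of -0.25 did not pass (adjusted p = 0.123), and its difference from the labelled knockout change was -0.26 (95% interval -0.55 to 0.04).

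In sedentary hearts the genotypes differed in Tfb1m by -0.04 (95% interval -0.25 to 0.17). In trained hearts Tfb1m fell by -0.29 ± 0.10 (adjusted p = 0.0367). That call was lost without trained wild-type library 1 or 3 or trained labelled knockout library 1, 4 or 5 (-0.29 to -0.20, adjusted p = 0.0552 to 0.104). The gene was thinly covered, by 79 to 242 reads per library.

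Twnk encodes the replicative helicase (chr19:45005663-45012762, plus strand), and 12.6% of its exon bases are shared with Mrpl43 on the other strand. Sedentary wild-type libraries had 10.9, 10.03, 11.6, 11.3 and 9.15 FPKM and sedentary labelled knockout libraries 8.69, 8.17, 6.32, 8.61 and 9.35. Trained wild-type libraries had 11.2, 7.64, 10.1, 8.75 and 7.74 FPKM and trained labelled knockout libraries 6.58, 7.08, 6.40, 5.95 and 6.99. Every trained labelled knockout library was below every trained wild-type library, while the sedentary genotypes overlapped through wild-type library 5.

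Twnk fell by 21.7% with genotype in sedentary hearts (log2 -0.35 ± 0.11, adjusted p = 0.0352) and fell by 25.2% in trained hearts (-0.42 ± 0.11, adjusted p = 0.00603). With training its values were -0.22 in wild-type (adjusted p = 0.189) and -0.29 in labelled knockout hearts (adjusted p = 0.0509). The latter passed with a mean FPKM of 2 or more required, by limma voom on recovered reads, with the groups fitted alone and when log2 Arntl was a covariate (adjusted p = 0.0349 to 0.0437), and without any 1 of sedentary wild-type library 5, sedentary labelled knockout library 3 and trained wild-type libraries 1, 2 and 5 (adjusted p = 0.0104 to 0.0469). The sedentary genotype call was lost with any 1 of 7 libraries left out (sedentary wild-type 1 to 4, sedentary labelled knockout 2 to 4), at -0.37 to -0.27 and adjusted p = 0.0526 to 0.102. The trained call was kept without each of the 20 libraries in turn.

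Polg, the catalytic subunit of the DNA polymerase (chr7:79446231-79466362, minus strand), was the steadiest member across groups, at 7.79 ± 1.21, 7.55 ± 0.732, 7.85 ± 0.717 and 6.999 ± 0.156 FPKM in sedentary wild-type, sedentary labelled knockout, trained wild-type and trained labelled knockout hearts. Its differences lay between -0.15 and 0.02, and the interval farthest below 0 was -0.33 to 0.03, for genotype in trained hearts. Polg2, the processivity subunit (chr11:106768253-106779537, minus strand), stood at 1.15 ± 0.105, 1.27 ± 0.186, 1.26 ± 0.245 and 1.07 ± 0.055 FPKM in the same order, with differences of -0.18 to 0.10 (adjusted p = 0.179 to 0.582). The Polg to Polg2 ratio of these FPKM levels was 6.82 ± 1.18, 6.06 ± 1.28, 6.41 ± 1.24 and 6.59 ± 0.425. None of the 4 comparisons made passed (exact two-sided permutation p of 0.349 or more).

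Ssbp1, which coats the unwound strand (chr6:40471352-40484700, plus strand), differed with training in labelled knockout hearts. Sedentary labelled knockout libraries were close together at 3.11, 3.27, 3.15, 3.13 and 3.23 FPKM, and all 5 trained ones were lower at 2.77, 2.49, 2.39, 2.44 and 2.61. It fell by 17.4% (log2 -0.28 ± 0.07, adjusted p = 0.00446). In wild-type hearts the level was 3.06 ± 0.276 FPKM sedentary and 2.73 ± 0.237 trained (-0.14, adjusted p = 0.189). Genotype differences in Ssbp1 were 0.05 in sedentary and -0.09 in trained hearts, neither past the threshold.

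**Figure D2:**
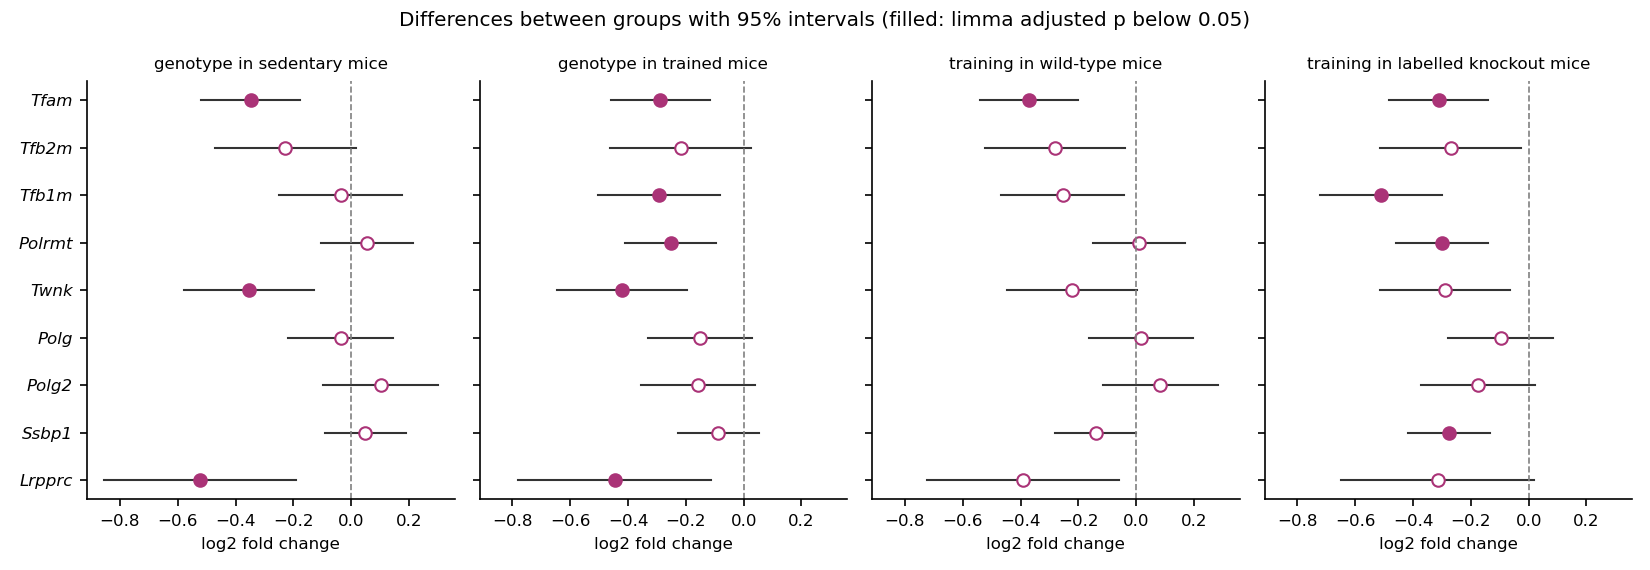
Log2 fold change (horizontal axis) of the 9 members tested in 4 comparisons, with 95% intervals from limma; filled points passed the adjusted threshold of 0.05. Intervals of Tfam lie below 0 in all 4 panels, and those of Polg and Polg2 cross 0 in all 4.

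Lrpprc, the mRNA-stabilising partner of SLIRP (chr17:84705247-84790789, minus strand), had the largest genotype differences of the members and the widest spread within groups. Sedentary wild-type libraries had 32.7, 28.0, 34.1, 21.8 and 21.7 FPKM and sedentary labelled knockout libraries 24.1, 18.7, 17.4, 16.5 and 18.0. Trained wild-type libraries had 28.6, 19.6, 23.6, 17.7 and 15.9 FPKM and trained labelled knockout libraries 17.8, 14.5, 16.4, 14.6 and 12.2. In sedentary hearts the overlap came from labelled knockout library 1, which lay above wild-type libraries 4 and 5. The gene had 2020 to 5468 reads per library, so counting error is small beside this spread.

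Lrpprc fell by 30.4% with genotype in sedentary hearts (log2 -0.52 ± 0.16, adjusted p = 0.0351) and fell by 26.6% in trained hearts (-0.45 ± 0.16, adjusted p = 0.0417). Its training values were -0.39 in wild-type (adjusted p = 0.129) and -0.32 in labelled knockout hearts (adjusted p = 0.151). The sedentary call was lost without any 1 of sedentary wild-type libraries 1 to 3 or sedentary labelled knockout libraries 2 to 5 (-0.52 to -0.44, adjusted p = 0.0653 to 0.107). The trained call was lost without any 1 of sedentary labelled knockout library 2, trained wild-type libraries 1 to 3 or trained labelled knockout libraries 2 to 5 (-0.48 to -0.33, adjusted p = 0.0503 to 0.115).

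Slirp was listed at 0.247 to 0.603 FPKM over the 20 libraries, on 14 to 39 reads each, and did not reach the mean of 0.5 FPKM needed for the test. Its gene (chr12:87443896-87452206, plus strand) shares 3036 of 3104 exon bases (97.8%) with exons of Snw1 and Alkbh1 on the opposite strand, and how the authors' counting treated such bases is not given in the sources used here. Its level is therefore uncertain. Group means were 0.389 ± 0.099, 0.458 ± 0.091, 0.448 ± 0.118 and 0.359 ± 0.090 FPKM. Fitted without the filter, its differences were -0.16 to 0.11 (adjusted p = 0.369 to 0.687).

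The ratio of Lrpprc to Slirp in FPKM was 73.7 ± 17.9 in sedentary wild-type and 42.6 ± 10.1 in sedentary labelled knockout hearts, with no overlap. Trained hearts had 50.7 ± 22.7 (wild-type) and 44.4 ± 12.1 (labelled knockout). The sedentary difference was -0.79 on the log2 scale (two-sided exact permutation, p = 0.00794, which no split can undercut, and 0.0635 adjusted over 8 ratio tests). The doubt about the level of Slirp applies to this ratio as well.

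The scaling of the libraries bears on the trained comparisons. The deposited FPKM sum to 331876 to 398369 per library in trained labelled knockout hearts and to 410641 to 531587 in the other groups. Bringing every library to the same sum (TPM) moved the median of all genes to 0.24 for genotype in trained hearts and to 0.21 for training in labelled knockout hearts, and to 0.07 and 0.05 in the sedentary genotype and wild-type training comparisons. Under TPM no member passed the test against 0 in the trained genotype comparison, and the differences were -0.02 for Tfam, -0.15 for Twnk, -0.16 for Lrpprc, -0.07 for Tfb1m and 0.02 for Polrmt. With training in labelled knockout hearts only Tfb1m passed in TPM (-0.30, adjusted p = 0.0189), in the sedentary genotype comparison only Tfam (-0.25, adjusted p = 0.0439), and with training in wild-type hearts none.

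Relative to the median of all genes, the members' places changed little with scaling, which follows by construction. A scaling multiplies every gene of a library by the same factor, so only the added 0.5 FPKM lets these distances move. In the trained genotype comparison the members' median lay -0.25 from that of all genes as deposited, -0.22 in TPM, and -0.23 when libraries were equalised without mitochondrial transcripts. For training in labelled knockout hearts these values were -0.27, -0.25 and -0.25. Tfam lay -0.28 from the median of all genes as deposited and -0.26 in TPM for genotype in trained hearts, Twnk -0.41 and -0.39, and Lrpprc -0.44 and -0.41. The falls in trained labelled knockout hearts are thus measured relative to the other genes, and which scaling gives the absolute change was not tested.

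**Figure D3:**
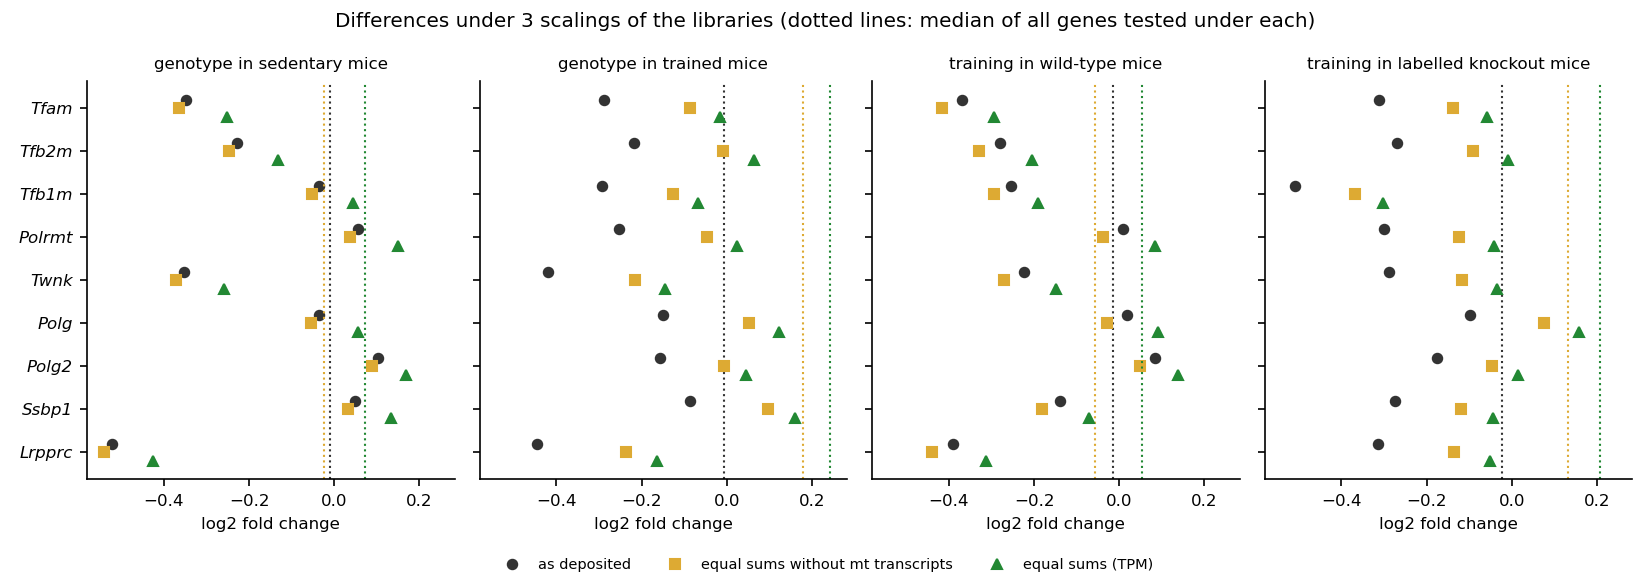
Log2 fold change (horizontal axis) of the 9 members in 4 comparisons under 3 scalings: as deposited, equal summed FPKM (TPM) and equal sums without mitochondrial transcripts. Dotted lines mark the median of all genes under each, which in TPM moves to 0.24 in the trained genotype panel, and the members move with it by construction.

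The Arntl split runs almost along the sedentary genotype comparison. Sedentary wild-type library 5, the one of its group with low Arntl, had the lowest Tfam (9.96 FPKM), Twnk (9.15) and Lrpprc (21.7) of the 5. Sedentary labelled knockout library 1, the one with high Arntl, had the highest Lrpprc of its group (24.1). Without the 5 high-Arntl libraries 1 sedentary wild-type library is left. It has no spread of its own and the fit takes the spread from the other libraries, so the sedentary calls cannot be judged. Tfam was then -0.26, Lrpprc -0.29 and Twnk -0.18 in sedentary hearts. With log2 Arntl as a covariate these were -0.25 (adjusted p = 0.148), -0.20 (0.562) and -0.22 (0.386).

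The wild-type training value of Tfam was -0.27 without the high-Arntl libraries, where the same 1 sedentary library is left, and -0.28 with the covariate (limma adjusted p = 0.194). In the trained genotype comparison 4 of the 5 calls held without the high-Arntl libraries, the exception being Tfb1m (-0.29, adjusted p = 0.058), and all 4 calls for training in labelled knockout hearts held. Leaving out the 4 high-Myl7 libraries kept all 5 trained genotype calls, at -0.37 for Tfam, -0.56 for Twnk, -0.53 for Lrpprc, -0.36 for Polrmt and -0.40 for Tfb1m. It ended the wild-type training call of Tfam (-0.29, adjusted p = 0.206).

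Cell type markers moved in the same comparisons. Macrophage markers rose in 3 of 4 genes in the sedentary genotype comparison and in 4 of 4 in trained hearts. Fibroblast markers rose in 3 of 4 genes in trained hearts, and cardiomyocyte markers fell in 2 of 6 and 3 of 6. Endothelial markers fell in 1 of 4 sedentary and 2 of 4 trained. With training in labelled knockout hearts macrophage markers rose in 4 of 4 genes, fibroblast markers in 2 of 4, and cardiomyocyte markers fell in 4 of 6. With training in wild-type hearts 0 cardiomyocyte, fibroblast or macrophage markers passed. There 1 of 4 endothelial markers rose, Pecam1 (0.37, adjusted p = 0.0339), where the median of the 4 was 0.08. Of 3 mesothelial markers 1 rose, Wt1 (1.11, adjusted p = 0.000306). These counts are as deposited. Of all 13723 genes tested, 955 rose with genotype in sedentary and 1713 in trained hearts, and 6.32% and 15.4% were called lower. With training, 403 rose in wild-type and 1656 in labelled knockout hearts, and 2.53% and 16.3% were called lower.

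Without the high-Arntl libraries 1 sedentary wild-type library is left, so the markers cannot be judged in sedentary hearts or with training in wild-type hearts. In trained hearts the cardiomyocyte, fibroblast, macrophage and endothelial counts without the high-Arntl libraries were the same as with all libraries. Without the high-Myl7 libraries they were also the same there, Pecam1 did not pass with training in wild-type hearts, and the cardiomyocyte count was 1 of 6 in sedentary hearts and 3 of 6 with training in labelled knockout hearts. In TPM 1 cardiomyocyte marker rose and 1 fell in each genotype comparison, 3 of 6 fell with training in labelled knockout hearts, and 4 of 4 fibroblast markers rose in both comparisons with trained labelled knockout hearts. In TPM 5128 of all 13723 genes tested rose with genotype in trained hearts and 4052 with training in labelled knockout hearts. The brown fat gene Ucp1, one of 4 adipocyte markers, had 57.8 and 30.1 FPKM in the high-Myl7 trained wild-type libraries and 117 and 4.42 in the high-Myl7 trained labelled knockout libraries, and 0.0367 or less in every other library.

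The summed FPKM of the 6 cardiomyocyte markers ranged over 14180 to 18312 in sedentary wild-type, 14759 to 17435 in sedentary labelled knockout, 12724 to 15780 in trained wild-type and 11075 to 12587 in trained labelled knockout hearts. As deposited, the trained labelled knockout range lay below the others. As a share of the library's summed FPKM the ranges overlapped: 2.67% to 3.86% and 3.45% to 3.78% in sedentary wild-type and labelled knockout hearts, and 2.94% to 3.27% and 2.996% to 3.55% in trained hearts of the same genotypes. Trained labelled knockout hearts were the highest in the 4 macrophage markers, at 106 to 190 FPKM against 42.8 to 96.5 elsewhere, and in the 4 fibroblast markers, at 192 to 263 against 88.7 to 144. The pair of ventricular markers, Myl2 and Myl3, summed to 2878 to 3611 FPKM there and 3478 to 7591 elsewhere. No marker was at 0 in all libraries of a group. The part of these shifts in the members' differences was not tested.

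The mRNAs that the members' products transcribe were lower in the same groups. The 13 mitochondrial mRNAs summed to 184450, 162952, 217287, 162133 and 179223 FPKM in sedentary wild-type libraries 1 to 5 and to 145609, 154217, 145989, 151444 and 144300 in sedentary labelled knockout libraries, with no overlap. Trained wild-type libraries had 180520, 138355, 173556, 117782 and 130820 FPKM and trained labelled knockout libraries 135405, 112353, 105309, 80695 and 117835. The trained groups overlapped. These mRNAs took 19.7 ± 2.04%, 17.3 ± 0.436%, 17.3 ± 2.06% and 14.6 ± 2.31% of reads in sedentary wild-type, sedentary labelled knockout, trained wild-type and trained labelled knockout hearts. Libraries were poly-A selected, so a change in tail length and a change in level cannot be told apart.

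By exact two-sided permutation adjusted over 4 comparisons, the summed mitochondrial mRNA level fell by 0.28 on the log2 scale with genotype in sedentary hearts (p = 0.00794, adjusted p = 0.0159) and by 0.45 with training in labelled knockout hearts (p = 0.00794, adjusted p = 0.0159), where 0.00794 is the smallest p that 5 against 5 libraries allow. The genotype difference in trained hearts (-0.43, exact permutation p = 0.0397, adjusted p = 0.0529) and the training difference in wild-type hearts (-0.30, exact permutation p = 0.0873) did not pass. In TPM the values were smaller, -0.18 for both that passed, and neither passed there. The trained genotype difference passed without trained wild-type library 4 or trained labelled knockout library 1 (-0.50 and -0.51, exact permutation adjusted p = 0.0317 for each), and the wild-type training difference without trained wild-type library 1 (-0.38, exact permutation adjusted p = 0.0423).

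Without the high-Myl7 libraries the summed level was -0.28 for genotype in sedentary hearts (exact permutation adjusted p = 0.0317) and -0.50 for training in labelled knockout hearts (adjusted p = 0.0357). In trained hearts the genotype value was -0.64, with an exact permutation p of 0.1, the smallest that 3 against 3 libraries allow, and the wild-type training value was -0.14 (p = 0.411). Without the high-Arntl libraries the sedentary genotype value was -0.27 with 1 wild-type library left, where an exact permutation p cannot be below 0.2, and training in wild-type hearts was -0.29, where it cannot be below 0.167. Training in labelled knockout hearts was then -0.45 (exact permutation p = 0.0159, adjusted p = 0.0635).

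Among single mitochondrial mRNAs, mt-Co1, subunit I of cytochrome oxidase, made up 33.5% of the summed FPKM and mt-Atp8 0.0199%. Means over the 20 libraries were 49190 FPKM for mt-Co1, 2537 for mt-Atp6, 2291 for mt-Co2, 1948 for mt-Co3, 142 for mt-Nd3 and 29.2 for mt-Atp8. Whether such low levels reflect the transcripts or how reads were counted was not tested. The same doubt applies to the differences of these low genes given below. As deposited, 6 of 13 fell with genotype in trained hearts and 6 of 13 with training in labelled knockout hearts, against 1 of 13 in each of the other comparisons. Over all genes tested, 15.4% and 16.3% were called lower in the former pair, and 6.32% (sedentary genotype) and 2.53% (wild-type training) in the latter. The trained genotype falls were largest for mt-Co3 (log2 -1.19, adjusted p = 0.00907) and mt-Co2 (-0.97, adjusted p = 0.00941), with mt-Nd4, mt-Cytb, mt-Co1 and mt-Nd1 at -0.56 to -0.40. With training in labelled knockout hearts mt-Nd3 (-1.49), mt-Nd6 (-0.60), mt-Cytb (-0.49), mt-Nd4 (-0.49), mt-Nd1 (-0.48) and mt-Co1 (-0.40) fell. In TPM 4 and 1 of 13 passed in these comparisons. The fall of mt-Nd3 with training in wild-type hearts (-2.03, adjusted p = 0.0310) went from 329 ± 204 to 70.3 ± 21.3 FPKM, and that of mt-Atp6 with genotype in sedentary hearts (-1.02, adjusted p = 0.0478) from 3924 ± 1757 to 1894 ± 730. Without the high-Arntl libraries 1 sedentary wild-type library is left, so this last pair of comparisons cannot be judged. Without the high-Myl7 libraries 0 of 13 passed with training in wild-type hearts.

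Libraries with more Tfam had more mitochondrial mRNA. Over the 20 libraries, log2 Tfam and the log2 summed level of the 13 mRNAs had a Pearson r of 0.92 and a Spearman rho of 0.94 (permutation p = 1e-05 for both, the smallest that 100000 resamples allow, adjusted over 10 members 5e-05 and 0.0001). Twnk (r = 0.82, rho = 0.80), Lrpprc (0.81, 0.86), Tfb1m (0.80, 0.74), Tfb2m (0.76, 0.82) and Ssbp1 (0.73, 0.67) also passed, with permutation p of r from 1e-05 to 0.00016 (adjusted 5e-05 to 0.000267) and of rho from 2e-05 to 0.00146 (adjusted 0.0001 to 0.00243). Polrmt (r = 0.42, rho = 0.47, permutation p = 0.0665 and 0.037, adjusted 0.095 and 0.0528), Polg (0.37, 0.44, p = 0.111 and 0.054), Polg2 (0.24, 0.27, p = 0.313 and 0.259) and Slirp (0.09, 0.09, p = 0.691 and 0.717) did not, with adjusted p of 0.0676 or more for the last 3.

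Leaving aside Slirp, the genes of both polymerases thus had the lowest r, a difference from the other members that was not tested. Without the pair of libraries farthest from the median level (trained labelled knockout library 4 and sedentary wild-type library 3), r was 0.89 for Tfam, 0.80 for Lrpprc, 0.76 for Twnk and 0.64 for Polrmt, which then passed (permutation adjusted p = 0.00596). Both measures come from the same libraries and differ between the groups. With group means subtracted, Tfam alone passed (r = 0.81, permutation p = 0.00206, adjusted p = 0.0206; rho = 0.72, p = 0.0053, adjusted p = 0.053), while Twnk had 0.51, Lrpprc 0.55 and Ssbp1 0.61 (permutation adjusted p = 0.0654 for each) and Polrmt -0.22.

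In TPM Tfam kept r = 0.72 (permutation adjusted p = 0.0025), Lrpprc 0.64, Twnk 0.51 and Tfb1m 0.47 (permutation adjusted p = 0.0497). Tfb2m (0.36, permutation adjusted p = 0.149) and Ssbp1 (-0.22) no longer passed, and Ssbp1, Polrmt (-0.64), Polg (-0.57), Polg2 (-0.56) and Slirp (-0.28) turned negative. Equal sums tie a high mitochondrial share to lower values of all other genes by construction. The deposited sums differ between libraries (331876 to 531587 FPKM). A factor shared by all genes of a library moves a member and the mitochondrial sum together, also with group means subtracted. Its part in the deposited r was not tested. Equalised without mitochondrial transcripts, Tfam had r = 0.88, Lrpprc 0.79, Twnk 0.76, Polrmt 0.02 and Polg 0.03. Over the 16 libraries with low Myl7 the value for Tfam was 0.90, and over the 15 with low Arntl 0.96.

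**Figure D4:**
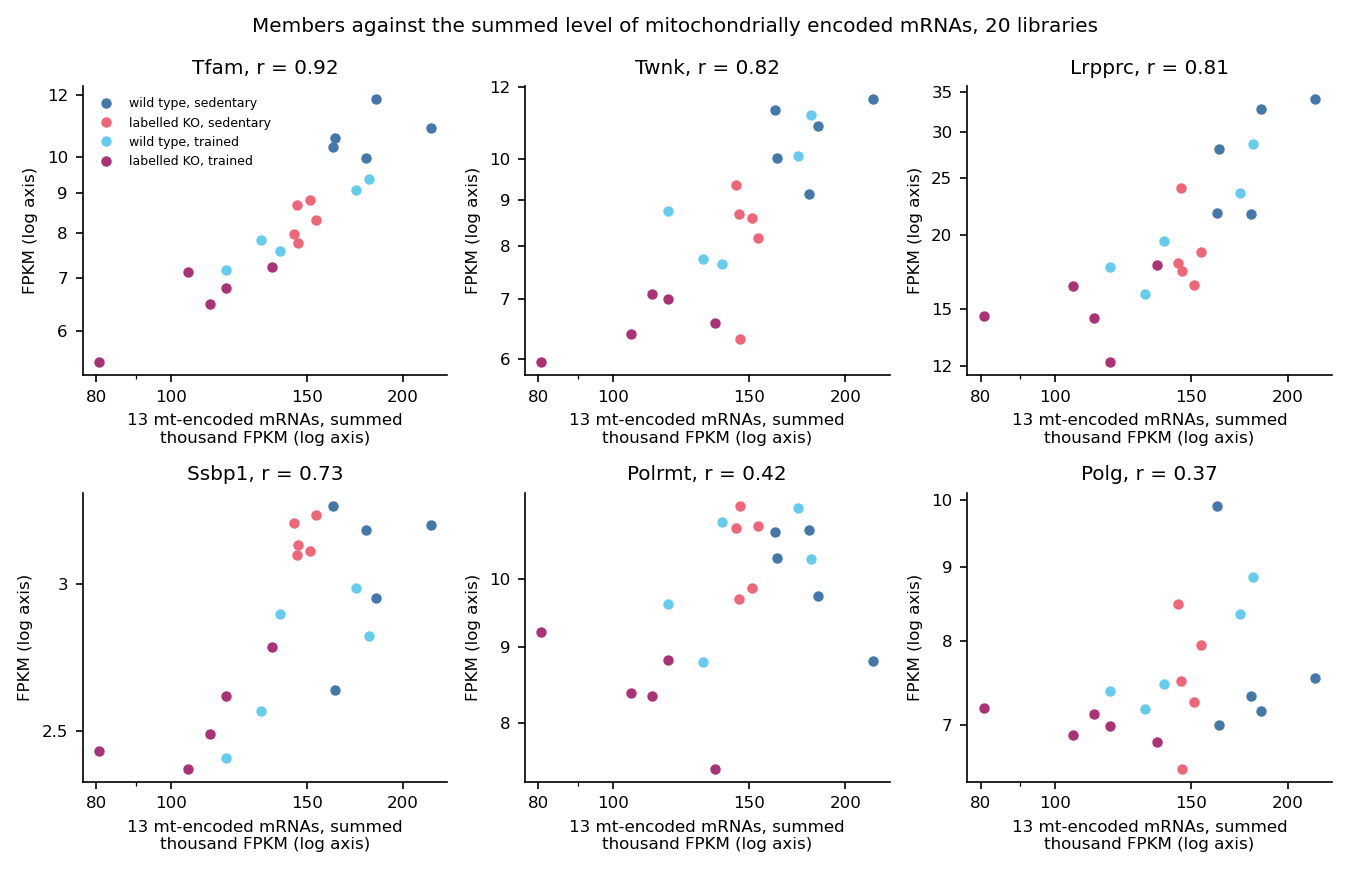
Each point is a library, coloured by group: horizontal axis, summed FPKM of the 13 mitochondrial mRNAs; vertical axis, FPKM of the named member (both log scales). Tfam follows the sum closely (r = 0.92), and Polrmt (0.42) and Polg (0.37) do so less.

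Genes whose log2 levels ran closest to each member over the 20 libraries are given as a description, since all share the libraries and the groups. Arpp19 (r = 0.97), the mitochondrial tRNA gene mt-Tc (0.96) and Suclg2 (0.95), a subunit of succinyl-CoA ligase, were nearest to Tfam. Nearest to Twnk were Dcun1d2, Isca1 and Immt (0.94 each), the last a core protein of mitochondrial cristae. Nearest to Lrpprc were Slc30a9 (0.97), Pkia (0.96) and Fam210a (0.96). Tfb1m ran with Grpel1 (0.96), Pex7 (0.93) and Adk (0.93), and Tfb2m with Synj2bp (0.94), Cdnf (0.94) and the calcium pump Atp2a2 (0.93).

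Polrmt ran with Hes6 (0.92), the mitochondrial threonyl-tRNA synthetase Tars2 (0.92) and the mitochondrial ribosomal protein Mrpl21 (0.91). Nearest to Ssbp1 were Emc2, Trap1 and Smarcd1 (0.90 each). For Polg they were Sec24c (0.87), Rnf10 (0.86) and Bap1 (0.85), and for Polg2, whose best matches were the loosest, Npff (0.78), Zfp963 (0.77) and Gm15469 (0.77). Among the 36 pairs of members the median r was 0.48, and 35 were above 0. With group means subtracted these were 0.25 and 25. Tfam ran closest with Twnk (0.87), Lrpprc (0.86) and Tfb2m (0.84).

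Other genes of mitochondrial transcription and RNA processing were lower in the same comparisons as the members. Of 37 tested, 1 rose and 20 fell with genotype in trained hearts, and 0 rose and 18 fell with training in labelled knockout hearts, against 1 and 7 with genotype in sedentary hearts and 0 and 3 with training in wild-type hearts. Their median differences were -0.27, -0.26, -0.13 and -0.12 in that order, beside medians of all genes near 0 (-0.02 to -0.01). Over all genes tested, 15.4%, 16.3%, 6.32% and 2.53% were called lower in the same order. In TPM the counts in trained hearts were 7 risen and 7 fallen for genotype and 0 and 4 for training in labelled knockout hearts, and without mitochondrial transcripts in the sum 1 and 10, and 0 and 7. Over all 13723 genes tested, TPM gave 5128 risen and 789 fallen, and 4052 and 630. Without mitochondrial transcripts in the sum these were 3824 and 984, and 2872 and 918. Without the high-Arntl libraries 1 sedentary wild-type library is left, so the 37 genes cannot be judged in sedentary hearts or with training in wild-type hearts. The same holds for the genes of replication and repair and of nucleotide supply described next.

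Mterf2, a member of the mitochondrial termination factor family, was the most reduced gene of this list in both genotype comparisons. It had 7.99 ± 0.901 FPKM in sedentary wild-type and 4.32 ± 0.642 in sedentary labelled knockout hearts (log2 -0.82 ± 0.11, adjusted p = 6.7e-05). Trained hearts had 6.28 ± 0.584 and 2.81 ± 0.397 FPKM (-1.04 ± 0.11, adjusted p = 6.29e-07). No wild-type library overlapped a labelled knockout library of the same training state. Of the exon bases of Mterf2 22.7% are shared with Tmem263 on the other strand, and how these were counted is not known.

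Fastk, which is needed for the mt-Nd6 mRNA, stood at 68.7 ± 3.11 FPKM in sedentary wild-type, 57.6 ± 4.18 in sedentary labelled knockout, 67.7 ± 5.73 in trained wild-type and 40.7 ± 1.82 in trained labelled knockout hearts. It fell by 0.72 on the log2 scale with genotype in trained hearts (adjusted p = 1.67e-07) and by 0.50 with training in labelled knockout hearts (adjusted p = 2.75e-05). Hsd17b10, a subunit of mitochondrial RNase P, was at 84.3 ± 8.73, 72.8 ± 8.70, 74.8 ± 9.94 and 42.8 ± 4.24 FPKM in the same order, and Mrpl12, a ribosomal protein reported to bind POLRMT, at 69.4 ± 5.10, 62.1 ± 4.63, 69.9 ± 8.17 and 42.9 ± 2.06. All 3 were lowest in trained labelled knockout hearts, with no overlap with the other groups. Exons of other genes on the opposite strand share 26.1% of the exon bases of Fastk and 13.1% of those of Mrpl12. How these bases were counted is not known.

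Mrm2, which methylates the large ribosomal RNA, fell in all 4 comparisons (-0.48 to -0.36). Fastkd1 fell by 0.64 with genotype in sedentary hearts, and with training in wild-type hearts Rpusd4, a pseudouridine synthase, fell by 0.36 and the elongation factor Tefm by 0.33. Rexo2, which degrades short RNA fragments in mitochondria, went the other way. It rose with genotype, from 12.7 ± 1.197 to 17.5 ± 0.897 FPKM sedentary (0.45, adjusted p = 0.000319) and from 12.8 ± 0.639 to 16.3 ± 1.26 FPKM trained (0.33, adjusted p = 0.00117).

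**Figure D5:**
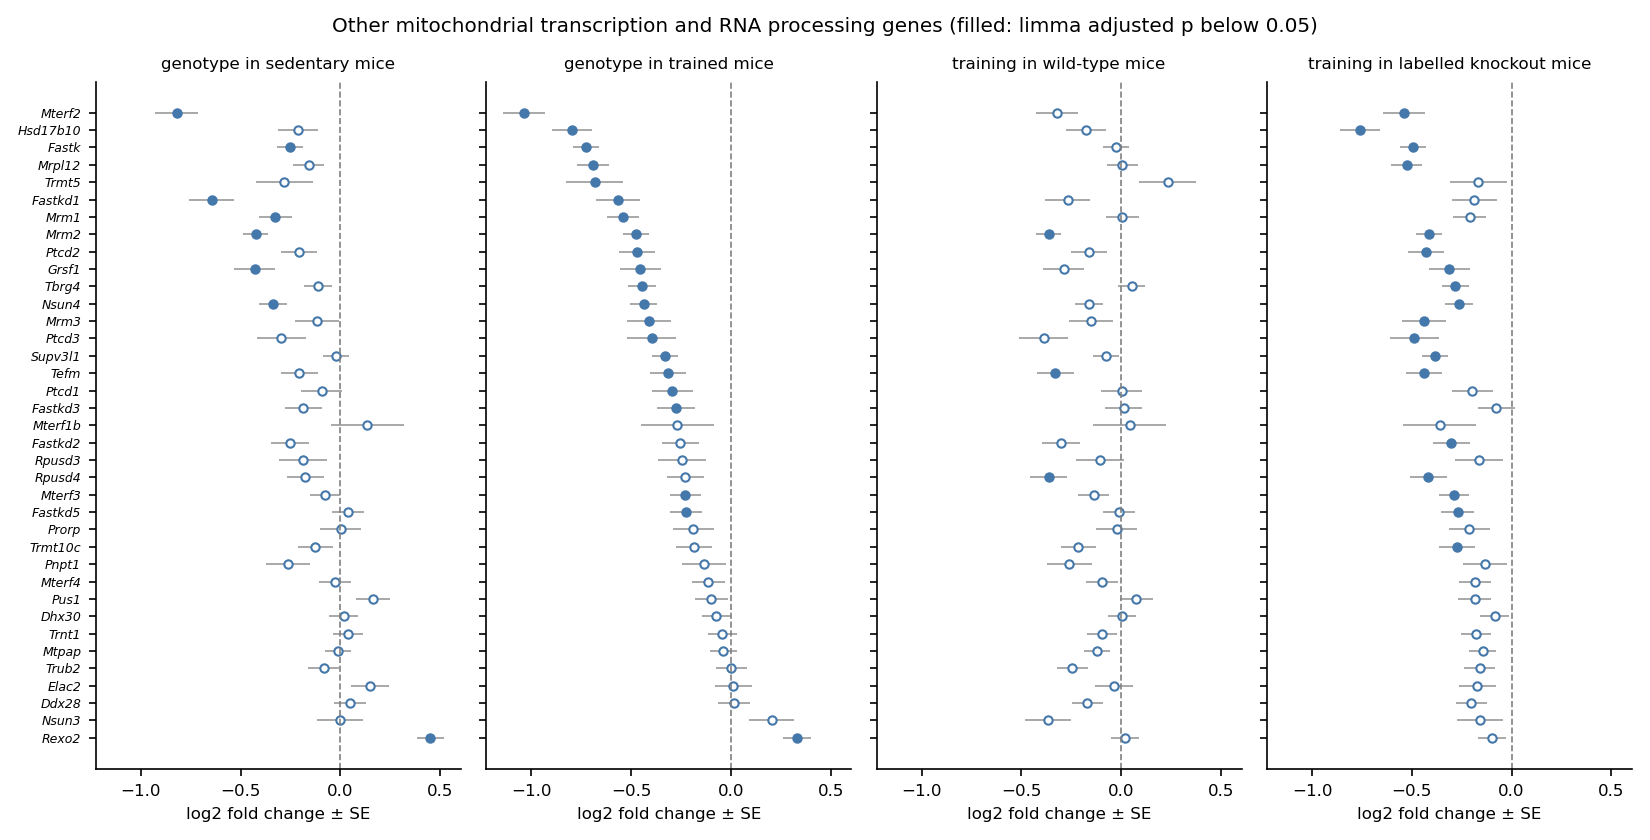
Log2 fold change ± SE (horizontal axis) of 37 genes of mitochondrial transcription and RNA processing in 4 comparisons. Mterf2 is the lowest in the sedentary genotype panel (-0.82) and the trained genotype panel (-1.04), and Rexo2 lies to the right of 0 in both (0.45 and 0.33).

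Of 13 other genes of mitochondrial DNA replication and repair, 2 fell with genotype in sedentary hearts, 5 in trained hearts and 5 with training in labelled knockout hearts, and 0 with training in wild-type hearts, where 1 had an unadjusted p below 0.05. Over all genes tested, 6.32%, 15.4%, 16.3% and 2.53% were called lower in that order. The medians of the 13 were -0.06, -0.15, -0.17 and -0.06. The nuclease Endog went from 50.4 ± 5.25 to 37.3 ± 6.84 FPKM with genotype in sedentary hearts and from 52.9 ± 7.12 to 24.2 ± 0.914 in trained hearts (log2 -0.44 and -1.10, adjusted p = 0.0118 and 4.14e-07). Of the exon bases of Endog 35.7% are shared with Spout1 on the other strand, and how these were counted is not known. Ung, the uracil glycosylase of base excision repair, fell by 0.59 sedentary and by 0.81 trained. Mgme1, an exonuclease that trims replication ends, and the topoisomerase Top1mt fell by 0.49 and 0.37 with genotype in trained hearts, and the inner membrane protein Mpv17 by 0.43 with training in labelled knockout hearts. In TPM the trained genotype count was 3 risen and 2 fallen, and that for training in labelled knockout hearts 1 and 2. Over all 13723 genes tested, TPM gave 5128 risen and 789 fallen, and 4052 and 630.

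Among 12 genes of nucleotide supply, Rrm2, the ribonucleotide reductase subunit of dividing cells, rose with genotype from 1.00 ± 0.209 to 2.35 ± 0.786 FPKM sedentary (0.90, adjusted p = 0.0113) and from 1.15 ± 0.570 to 3.05 ± 0.872 trained (1.13, adjusted p = 0.000698). The dividing-cell markers Top2a and Mki67 rose as well in trained hearts (2 of 2) and did not pass the test in sedentary hearts (0 of 2). The mitochondrial kinase Dguok (-0.37), the nucleotide carrier Slc25a33 (-0.98) and Abat (-0.995) fell with genotype in trained hearts. Dguok (-0.33) and Slc25a33 (-0.77) fell with training in labelled knockout hearts, and none of the 12 passed with training in wild-type hearts, where 4 had an unadjusted p below 0.05. As deposited, 0 of 12 fell with genotype in sedentary hearts, 4 in trained hearts and 2 with training in labelled knockout hearts. Over all genes tested, 6.32%, 15.4% and 16.3% were called lower there. In TPM the counts were 4 risen and 2 fallen for genotype in trained hearts and 4 and 0 for training in labelled knockout hearts. In these comparisons 5128 and 4052 of all 13723 genes tested rose in TPM.

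Of 14 nuclear regulators, Esrra, which encodes the ERRα receptor that partners PGC-1α, fell from 86.8 ± 4.98 to 62.2 ± 1.27 FPKM with genotype in sedentary hearts (log2 -0.47, adjusted p = 9.22e-06) and from 87.7 ± 3.47 to 48.6 ± 1.59 in trained hearts (-0.85, adjusted p = 2.71e-09). Perm1, a muscle regulator downstream of both, fell by 0.57 and 0.78. Nrip1, a corepressor, fell by 0.52 in sedentary hearts. Pprc1, a relative of Ppargc1a, rose by 0.44 with training in both genotypes. The counts were 1 risen and 3 fallen of 14 for genotype in sedentary hearts, 1 and 2 in trained hearts, 1 and 0 with training in wild-type hearts, and 1 and 2 with training in labelled knockout hearts. Over all genes tested, 6.32%, 15.4%, 2.53% and 16.3% were called lower in that order. Both fallen counts with trained labelled knockout hearts were near these shares. The gene that rose in both genotype comparisons was Ppargc1a. In TPM the trained genotype count was 5 risen and 2 fallen, and that for training in labelled knockout hearts 7 and 0. In these comparisons 5128 and 4052 of all 13723 genes tested rose in TPM. Without the high-Arntl libraries 1 sedentary wild-type library is left, so the sedentary and wild-type training counts cannot be judged.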

How the data were processed

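Poly-A selected, strand-marked libraries from 20 hearts were sequenced on a HiSeq2500, per the labels' protocols. Values are FPKM per gene, computed and deposited by the authors in 1 table. HISAT2 2.0.5, featureCounts 1.5.0-p3, DESeq2 1.20.0 and mm10 are listed, without their roles, per the submitters' processing notes. FPKM times exon length (GENCODE M21, GRCm38) gave whole reads, within 0.01, in every library for 24971 genes (96.6%), and genes without whole reads held 5.36% of reads. Depth was 14.2 to 30.4 M reads, and effective library sizes 14.1 to 31.8 M. 0 columns belonged to no sample.

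Genes with a mean of at least 0.5 FPKM (13723, with 12128 left out) were fitted as log2(FPKM + 0.5) with limma 3.58.1 in R 4.3.3, in 1 fit over 4 groups (16 residual degrees of freedom, eBayes with trend, two-sided, Benjamini-Hochberg over all genes tested). A fold on this scale understates the change of low genes. Single values were tested by exact permutation and correlations by 100000 permutations (Python 3.11.15, numpy 2.4.6, pandas 2.3.3, scipy 1.17.1). The procedure was tested on simulated data. Alternatives were other pseudocounts, filters and scalings, groups fitted alone, a replicate block, voom on recovered reads, fits without the libraries high in Arntl or Myl7 or with either as a covariate, and each library left out. Members, lists, tests and alternatives were chosen with earlier results of these data known. Named are all members, up to 4 called genes per list and comparison in order of p, the 3 genes of highest r per member, called mitochondrial mRNAs and those with the highest and lowest share and Ppargc1a, Arntl and Myl7. A gene named for 1 comparison may be given for the others. Sequences are from RefSeq (GRCm38.p6).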

Additional observations from a re-analysis of the deposited data

Results flagged for a closer look

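Polg in sedentary wild-type library 4 (9.91 FPKM) stood apart from the other libraries of its group (6.995 to 7.55 FPKM). Of 44 groups of 5 libraries checked for such a gap (the 10 members and the summed mitochondrial mRNA level in each of 4 groups) this was the 1 found, and chance alone marks about 1 group in 20.

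The training change differed between the genotypes, by limma's interaction, for 9 genes of the surrounding lists other than cell type markers, and for no member. Of all 13723 genes tested, 686 (5%) were called lower and 319 higher. Of the lists, 5 of 37 genes of transcription and RNA processing were lower, 1 of 13 of replication and repair, 1 of 12 of nucleotide supply and 1 of 14 regulators. In each of the 9 the training change was the lower one in labelled knockout hearts: Slc25a33 (-1.33), mt-Rnr1 (-0.75), Endog (-0.66), Hsd17b10 (-0.58), Mrpl12 (-0.53), Fastk (-0.47), Esrra (-0.37), Tbrg4 (-0.33) and Supv3l1 (-0.31, all log2). Among the markers Tnni3 and Tnnt2 were lower, and Col1a1, Adgre1 and Csf1r higher. Tbrg4 stabilises mitochondrial mRNAs, Supv3l1 is the helicase of the mitochondrial RNA degradosome and mt-Rnr1 is the small ribosomal RNA. In TPM, which moved the median of all genes to 0.15, Slc25a33 (-1.15, adjusted p = 0.0478) and mt-Rnr1 (-0.55, adjusted p = 0.0490) still passed. Without the 5 high-Arntl libraries 1 sedentary wild-type library is left, so the interaction of these 9 and of the markers cannot be judged.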

How the results depend on the processing

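Tfam passed for genotype in sedentary and trained hearts and for training in labelled knockout hearts with each of the 20 libraries left out, as did Twnk for genotype in trained hearts and Tfb1m for training in labelled knockout hearts. Tfb1m also passed there under all 13 other alternatives. The number of members called moved as follows. For genotype in sedentary hearts (3) it was 1 with no filter, in TPM and with sums without mitochondrial transcripts, 0 with Arntl as a covariate, and 1 to 3 with 1 library left out. For genotype in trained hearts (5) it was 3 with no filter or the groups fitted alone, 0 in TPM and with sums without mitochondrial transcripts, and 2 to 5 with 1 library left out. For training in wild-type hearts (1) it was 0 in TPM, with the groups alone, without the high-Myl7 libraries and with Arntl as a covariate, and 0 to 4 with 1 library left out. For training in labelled knockout hearts (4) it was 1 in TPM and with sums without mitochondrial transcripts, and 4 to 6 with 1 library left out. The averaged genotype count (4) was 3 to 5 with 1 library left out. In TPM its calls of Tfam (limma adjusted p = 0.0578) and Tfb2m were lost, those of Twnk and Lrpprc were kept, and Ssbp1 rose. Without the high-Arntl libraries 1 sedentary wild-type library is left, so no member count is given for comparisons with that group. The interaction (0) gave 1 without the high-Myl7 libraries and 0 to 1 with 1 library left out. The shift of all genes in TPM is given above, and the other causes were not tested.

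The replicate numbers share no stated origin. Same-numbered libraries correlated at -0.28 to 0.48 (median 0.07, 30 pairs, 12 over 0.1), and 5 of 20 libraries correlated best with their own number. With the number as a block, Lrpprc passed for training in wild-type (adjusted p = 0.0138) and labelled knockout hearts (0.0119), and training in wild-type hearts gave 2 members (with Tfam) and 1664 of all genes.

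The summed mitochondrial mRNA difference was -0.28 for genotype in sedentary hearts and -0.45 for training in labelled knockout hearts. These were -0.18 and -0.18 in TPM, -0.18 and -0.26 as a share of reads, -0.27 and -0.45 without the high-Arntl libraries, and -0.28 and -0.45 in the paired form, and none passed. The smallest exact p possible is 0.2 for the former without the high-Arntl libraries and 0.0625 in the paired form. With 1 library left out they were -0.32 to -0.21 and -0.53 to -0.34, and -0.51 to -0.32 and -0.38 to -0.22 for genotype in trained hearts and training in wild-type hearts. Of 6 members related to it, 1 stayed past the threshold with group means subtracted. Signs turned in TPM for the relations of Polrmt (-0.64), Polg (-0.57), Polg2 (-0.56), Slirp (-0.28) and Ssbp1 (-0.22), for genotype in trained hearts in Polrmt (0.024) and for the averaged genotype in Ssbp1 (0.15, adjusted p = 0.0199).

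Over all genes, calls numbered 1822 (955 higher) for genotype in sedentary, 3825 (1713) in trained hearts, 750 (403) for training in wild-type and 3892 (1656) in labelled knockout hearts, 4116 (1983) for the averaged genotype and 1005 (319) for the interaction. In TPM they were 1454 (1061), 5917 (5128), 240 (186), 4682 (4052), 5721 (4840) and 406 (348), and with sums without mitochondrial transcripts 1325 (656), 4808 (3824), 529 (188), 3790 (2872), 4278 (3026) and 693 (627). Without the high-Arntl libraries 1 sedentary wild-type library is left, so no counts are given for comparisons with that group. With Arntl as a covariate genotype in sedentary hearts gave 594, training in wild-type hearts 73 and the interaction 267. Training in wild-type hearts gave 354 with no filter, 61 with the groups alone, 39 without the high-Myl7 libraries and 459 with Myl7 as a covariate, and the interaction 629 with no filter. Depth limits Slirp, Polg2 and Tfb1m most.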
